A study of Sus scrofa with 6 samples.

Results

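The IL-6 family of cytokines and its route to STAT3 were followed through 10 genes in porcine embryonic fibroblasts (PEFs) and in the induced pluripotent stem cells (piPSCs) made from them. The set is defined by gene names and holds the cytokines IL6, IL11 and LIF, the receptor subunits IL6ST, LIFR, OSMR, IL6R and IL11RA, the transcription factor STAT3 and the feedback inhibitor SOCS3. All 10 were found among the 18007 genes of the table, 9 under their symbol and SOCS3 through its identifier, and all 10 passed the filter on low values, a mean of at least 0.5 FPKM (fragments per kilobase of gene length, scaled to the depth of the library) over the 6 libraries.

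The PEF lines PEF5, PEF7 and PEF8 were grown from the ear tips of embryos taken at E90 (embryonic day 90) from a Meishan sow mated to a Longwhite boar, a breed that the study's methods call Large White. Each was transduced with lentiviruses carrying Oct4, Sox2, Klf4 and c-Myc (OSKM) under doxycycline control, which gave piPSC5, piPSC7 and piPSC8, so both groups share their donors and only the piPSCs carry the factors. The piPSCs were grown on mouse embryonic fibroblast feeders in a medium named LF2i, whose composition is not given in the sources used here. One library was made per line (n = 3 per group), so p-values measure the spread between lines, and no line has a repeat.

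In this family a cytokine first meets its own receptor subunit, IL6R for IL-6 and IL11RA for IL-11, or LIFR in the case of LIF, and the complex then signals through the shared subunit gp130, the product of IL6ST. Gp130 activates JAK kinases, which phosphorylate STAT3, and phosphorylated STAT3 enters the nucleus and turns on genes such as SOCS3, whose protein blocks the receptor in turn. Fibroblasts are a well-known source of IL-6, IL-11 and LIF, and LIF acting on STAT3 is the classical support of mouse embryonic stem cells. RNA levels report neither secreted cytokine nor phosphorylated STAT3.

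The libraries held between 11010629 and 17836510 fragments. The summed level of 10 fibroblast markers was 4370 to 6204 FPKM in PEFs and 130 to 223 FPKM in piPSCs, and 9 of the 10 were higher in every PEF library than in every piPSC library. Of 10 markers of pluripotent cells, 7 were in the table, with a summed level of 0.0703 to 0.202 FPKM in PEFs and 2.96 to 9.16 FPKM in piPSCs, and NANOG, ESRRB, SALL4 and EPCAM stayed under 0.1 FPKM in all 6 libraries. SOX2 was at 0 to 0.0208 FPKM in PEFs and 0.129 to 3.01 FPKM in piPSCs, and LIN28B at 0.0104 to 0.0367 FPKM and 0.281 to 8.90 FPKM, and together they made up most of the sum in piPSCs. SOX2 is also an introduced factor, and fragments of its transgene were not told apart. The 6 immune markers in the table summed to 10.8 to 23.7 FPKM in PEFs and 1.10 to 3.26 FPKM in piPSCs, a fall carried by CD14, which was at 9.20 to 21.9 FPKM in PEFs and 0.110 to 0.239 FPKM in piPSCs. CD68 overlapped between the groups, and CD163 was under 0.1 FPKM everywhere. The study describes all the PEF lines as male, but the Y-linked DDX3Y had 3439 fragments in PEF8, 4207 in piPSC8 and 0 in the libraries of lines 5 and 7, so LIFR, OSMR, IL11RA and SOCS3 are also given without line 8. Fragments from the mouse feeders cannot be told apart from pig fragments in a table of values per gene.

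The comparison of piPSCs with PEFs asked how the family differed between them. Reprogramming cannot be told apart here from the feeders and medium that the piPSCs were grown with. In limma, 5 of the 10 genes were called, which asked for a Benjamini-Hochberg adjusted p under 0.05 together with a change of 2-fold or more. IL6, IL11, LIF and IL6R were lower in piPSCs and LIFR was higher. Of all 12428 tested genes, 36.8% were called, 16.7% as lower and 20.2% as higher, so calls were common throughout the table. The same 5 genes were those whose groups did not overlap. PEF lay above piPSC for 4 of 10 and below for 1 of 10, against 26.8% and 37.3% of the tested genes. The median log2 fold change was -0.89 over the 10 genes and 0.20 over all tested genes. After libraries were rescaled by the median ratio of their genes, the median over all genes was -0.01 and the split turned from 2505 higher and 2070 lower to 1879 higher and 2511 lower, while the same counts of family members, 1 higher and 4 lower, were called. All fold changes below are on the log2(FPKM + 1) scale, piPSC minus PEF, which understates the change of low genes.

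**Figure D1:**
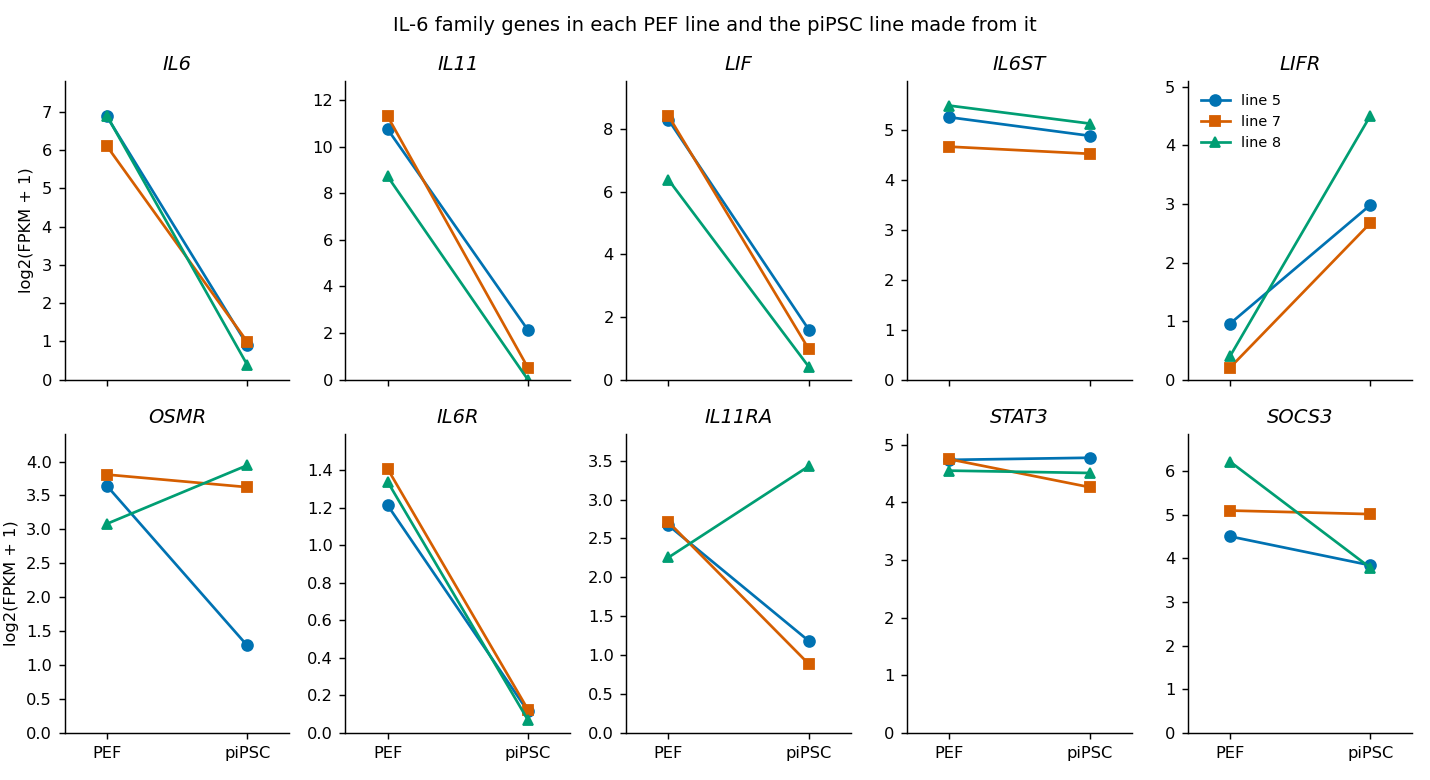
Level of each of the 10 genes as log2(FPKM + 1), with the PEF line on the left and the piPSC line made from it on the right of each panel, 1 point per library and a separate scale per panel. All lines fall for IL6, IL11, LIF and IL6R and rise for LIFR, while line 8 moves against the other two for IL11RA and lines 5 and 8 part for OSMR.

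The 3 cytokines were among the strongly expressed genes of PEFs and were close to absent in piPSCs. IL6 encodes the inflammatory cytokine IL-6, IL11 a cytokine tied to fibroblast activation, and LIF the leukemia inhibitory factor. The table places IL6 on chromosome 9 (91506340 to 91511491, plus strand), IL11 on chromosome 6 (59541656 to 59543511, minus strand) and LIF on chromosome 14 (47221486 to 47228273, minus strand) of Sscrofa11.1.

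The DNA just before the IL6 and IL11 starts is shown because both genes fell together and because short motifs of known inducers of these genes could be looked up there. The 250 bases before each RefSeq mRNA start on Sscrofa11.1 are printed 5′ to 3′ on the strand of the gene, with motif matches in capitals.
IL6, chr9:91506171-91506420, plus strand: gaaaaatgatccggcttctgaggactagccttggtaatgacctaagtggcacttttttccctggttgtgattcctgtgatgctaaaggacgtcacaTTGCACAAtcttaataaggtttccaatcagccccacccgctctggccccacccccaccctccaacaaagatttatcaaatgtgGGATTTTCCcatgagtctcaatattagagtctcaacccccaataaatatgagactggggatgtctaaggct
IL11, chr6:59544910-59545159, minus strand: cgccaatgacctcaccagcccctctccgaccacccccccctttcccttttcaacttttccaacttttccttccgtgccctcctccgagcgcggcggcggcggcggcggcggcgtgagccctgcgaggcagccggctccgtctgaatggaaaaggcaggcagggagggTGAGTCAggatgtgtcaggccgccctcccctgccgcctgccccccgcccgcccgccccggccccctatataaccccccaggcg

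In the IL6 stretch the capitals mark a C/EBP match (TTGCNNAA) at positions -154 to -147 and an NF-kB match (GGANNTTCC) at -71 to -63, counted from the mRNA start, with -1 the base just before it. In the IL11 stretch they mark an AP-1 match (TGANTCA) at -83 to -77. Both strands were searched, and among 37290 such stretches before the mRNA starts of 13918 genes, 7.41% held the C/EBP motif, 7.50% the NF-kB motif and 4.52% the AP-1 motif. A match describes the letters only and is neither a site nor a cause. The table starts its IL6 row inside the printed stretch, upstream of the RefSeq start. None of the 4 RefSeq starts of LIF had any of the 5 motifs searched in its 250 bases, nor did that of STAT3. SOCS3 had a STAT match, shown with that gene, and the other matches were an AP-1 motif before 1 start of IL6R and a C/EBP motif before 3 neighbouring starts of OSMR, and no stretch of the members held the CRE motif (TGACGTCA, 1.67% of all stretches).

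IL6 was at 117, 67.8 and 118 FPKM in PEF5, PEF7 and PEF8, and at 0.882, 0.993 and 0.313 FPKM in piPSC5, piPSC7 and piPSC8. Every PEF library lay far above every piPSC library. The means of 101 ± 28.6 (SD) and 0.729 ± 0.365 FPKM were 138-fold apart, and limma put the log2 fold change at -5.86 (SE 0.29) with an adjusted p of 0.000115. The values rested on 2304 to 4226 fragments per PEF library and on 27, 24 and 7 fragments in piPSC5, piPSC7 and piPSC8. IL6 ranked 400, 794 and 395 among all genes of PEF5, PEF7 and PEF8, and 10755, 10731 and 11457 in piPSC5, piPSC7 and piPSC8.

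IL11 had the highest FPKM of the 10 genes in every PEF line, at 1711 FPKM in PEF5, 2509 in PEF7 and 420 in PEF8. These values rest on a gene length of 591 bp, recovered from the FPKM values and the shortest of the 10 genes, and the RefSeq start lies upstream of the row. By FPKM IL11 ranked 13, 8 and 94 among all genes there. For comparison, the collagen gene COL1A1 was at 1627, 2822 and 869 FPKM in PEF5, PEF7 and PEF8, above IL11 in PEF7 and PEF8. In piPSC5, piPSC7 and piPSC8 IL11 was at 3.37, 0.427 and 0 FPKM, from 30, 3 and 0 fragments. The groups did not overlap, and PEF8 stood several-fold below the other PEF lines. Limma gave a change of -9.37 (SE 0.80) with an adjusted p of 0.000416. Line by line, IL11 was 507-fold lower in piPSC5 than in PEF5 (exact binomial 95% interval of the ratio 355 to 752). In line 7 the ratio was 5877 with an interval of 2011 to 28502, set by the 3 fragments of piPSC7. In line 8, where piPSC8 had 0 fragments, the lower bound of the same interval was 741-fold. Such intervals cover counting error only.

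LIF was at 314, 343 and 82.6 FPKM in PEF5, PEF7 and PEF8, and at 2.04, 0.969 and 0.334 FPKM in piPSC5, piPSC7 and piPSC8. As for IL11, PEF8 was the lowest PEF line, and no piPSC library came near a PEF library. Its change was -6.71 (SE 0.59) at a limma adjusted p of 0.000441. LIF was 154-fold lower in line 5, 354-fold lower in line 7 and 247-fold lower in line 8. In FPKM, IL11 exceeded LIF by 5.45-fold, 7.31-fold and 5.09-fold in PEF5, PEF7 and PEF8, so the levels of this pair differed across the PEF lines more than their ratio did. The size of that ratio depends on the recovered gene lengths of 591 bp for IL11 and 4079 bp for LIF. By fragments LIF led in PEF5 (22822 against 18034) and PEF8 (5105 against 3762), and IL11 led in PEF7 (24781 against 23405).

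The fall of the cytokines ran alongside the fall of the fibroblast markers given above, and the part of that fall in the result was not tested. In bulk RNA, fewer cells of a type and less RNA per cell cannot be told apart. Over 11412 tested genes with a symbol, the genes nearest to IL6 by root mean square distance of the centred log2(FPKM + 1) profile over the 6 libraries were CXCL16 (0.29), TSPO (0.32) and PLEKHF1 (0.40). CXCL16, which encodes a chemokine, was at 38.3 to 59.2 FPKM in PEFs and 0.139 to 0.150 in piPSCs. For LIF the nearest were the fibroblast marker THY1 (0.48), the matrix gene LTBP2 (0.49) and the sugar transporter gene SLC2A5 (0.50). For IL11 they were the matrix gene FMOD (0.97), the cytokine gene IL1A (1.03) and the chemokine gene AMCF-II (1.23). IL1A was at 508 to 685 FPKM in PEFs and at 0.0735, 0.0465 and 0 FPKM in the piPSC lines. These distances are descriptions over 6 libraries that fall into separate groups.

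**Figure D2:**
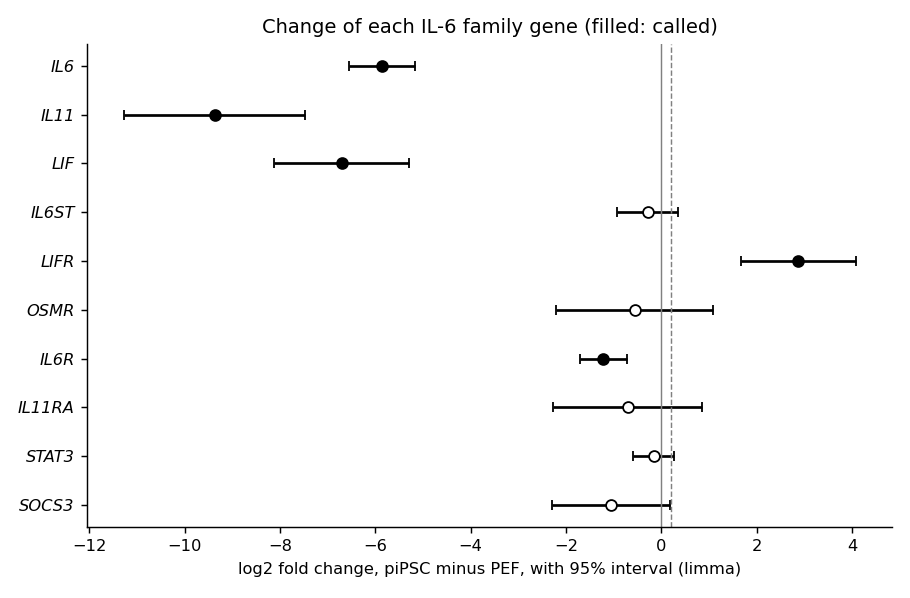
Log2 fold change of each gene, piPSC minus PEF, from limma, with its 95% interval. Filled points are called genes, the solid line is 0 and the dashed line is the median of all tested genes, 0.20. IL11, LIF and IL6 lie at -9.37, -6.71 and -5.86, and LIFR at 2.87 is the only gene whose interval lies wholly above 0.

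The receptor side did not move as 1 block. Of the 5 receptor genes, LIFR rose, IL6R fell, and IL6ST, OSMR and IL11RA were not called.

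IL6ST encodes gp130, the subunit shared by the receptors of IL-6, IL-11, LIF and oncostatin M. It was at 37.3, 24.5 and 44.0 FPKM in PEF5, PEF7 and PEF8 and at 28.6, 22.1 and 34.1 FPKM in piPSC5, piPSC7 and piPSC8. The groups overlapped, with line 7 the lowest and line 8 the highest in both, and each piPSC line lay below its own PEF line, with log2 ratios of -0.37, -0.14 and -0.36 in lines 5, 7 and 8. The fitted change of -0.29 (SE 0.26) was not called (limma adjusted p = 0.383), and its 95% interval ran from -0.92 to 0.34, which leaves room for a fall of nearly 2-fold. With the line as a replicate block the SE was 0.15 and the change was still not called (limma adjusted p = 0.165), and rescaled to the median ratio it was -0.55. IL6ST had the highest level of the 10 genes in piPSCs by its mean, 28.3 ± 6.03 FPKM.

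LIFR, which pairs with gp130 to bind LIF, rose. It was at 0.941, 0.154 and 0.319 FPKM in PEF5, PEF7 and PEF8, from 170, 26 and 49 fragments. In piPSC5, piPSC7 and piPSC8 it was at 6.91, 5.39 and 21.7 FPKM, from 1053, 649 and 2423 fragments. Every piPSC library lay above every PEF library, and piPSC8 was the highest. Limma put the rise at 2.87 (SE 0.50) with an adjusted p of 0.00431, and it was 2.25 without both libraries of line 8 (limma adjusted p = 0.00861). By line the FPKM rose 7.34-fold in line 5, 35.1-fold in line 7 and 68.0-fold in line 8. LIFR went from the lowest of the 10 genes in each PEF line to rank 4 of 10 by its piPSC mean.

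IL6R, which binds IL-6 and presents it to gp130, was low in PEFs and nearly absent in piPSCs. It was at 1.32, 1.65 and 1.53 FPKM in PEF5, PEF7 and PEF8, from 132, 155 and 130 fragments, and at 0.0828, 0.0898 and 0.0485 FPKM in piPSC5, piPSC7 and piPSC8, from 7, 6 and 3 fragments. The PEF libraries lay close together and above all piPSC libraries. Its change of -1.22 (SE 0.21) had a limma adjusted p of 0.00395, and the pseudocount of 1 holds it small at such levels. On the recovered fragments limma's voom gave -4.24 (adjusted p = 0.00141), and the mean FPKM fell 20.3-fold.

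OSMR, which pairs with gp130 to bind oncostatin M, went different ways in different lines. It was at 11.5, 13.0 and 7.47 FPKM in PEF5, PEF7 and PEF8 and at 1.44, 11.3 and 14.4 FPKM in piPSC5, piPSC7 and piPSC8. PiPSC5 alone was low, while piPSC7 lay within the PEF range and piPSC8 above it. Over all lines the change was -0.56 (SE 0.69) with a limma adjusted p of 0.518 and a 95% interval from -2.20 to 1.09. Without both libraries of line 8 it was -1.27 (limma adjusted p = 0.222). Without piPSC5 it turned to 0.27 (limma adjusted p = 0.471), so its direction rests on that library. The row overlaps FYB1 on the opposite strand, and the strand setting of the counting is not given in the sources used here.

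IL11RA, the IL-11 binding subunit, was at 5.36, 5.55 and 3.77 FPKM in PEF5, PEF7 and PEF8 and at 1.27, 0.848 and 9.78 FPKM in piPSC5, piPSC7 and piPSC8. PiPSC5 and piPSC7 were below all PEF lines and piPSC8 above all of them. The fit over all lines gave -0.71 (SE 0.66), a limma adjusted p of 0.389 and a 95% interval from -2.28 to 0.86. Without piPSC8 it was -1.51 and called (limma adjusted p = 0.00641), and without both libraries of line 8 it was -1.66 (limma adjusted p = 0.00841). A further row of the table, known by its identifier only, overlaps IL11RA on the opposite strand.

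LIFR and OSMR bind gp130 for different ligands, and their order turned over. OSMR exceeded LIFR by 12.2-fold, 84.6-fold and 23.4-fold in PEF5, PEF7 and PEF8. In piPSC5 and piPSC8 LIFR exceeded OSMR by 4.79-fold and 1.51-fold, while in piPSC7 LIFR was still at 0.476 of the level of OSMR. Set against gp130, IL6ST exceeded LIFR by 39.7-fold to 159-fold in PEFs and by 1.57-fold to 4.14-fold in piPSCs. IL6ST exceeded IL6R by 14.8-fold to 28.8-fold in PEFs and by 246-fold to 703-fold in piPSCs. These ratios are of levels per length within a library.

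**Figure D3:**
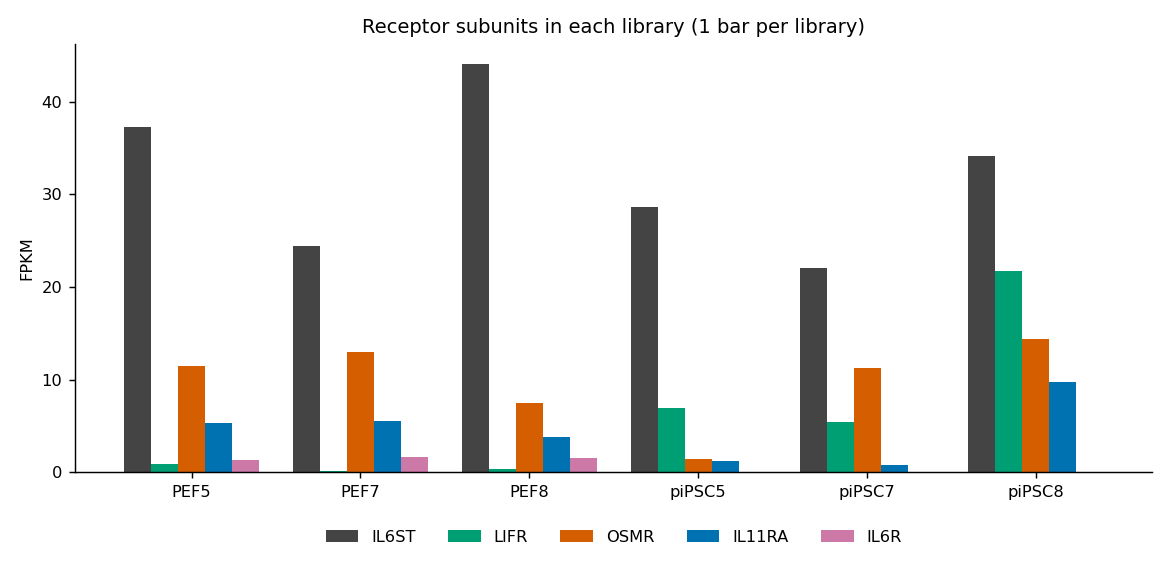
FPKM of the 5 receptor genes in each library, 1 bar per gene and library, on an axis from 0. IL6ST is the tallest bar in all 6 libraries, LIFR is at 0.154 to 0.941 in the PEF lines and at 5.39 to 21.7 in the piPSC lines, and IL6R is too low to see in the piPSC lines.

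STAT3, the transcription factor downstream of gp130, was not called. It was at 25.7, 25.9 and 22.5 FPKM in PEF5, PEF7 and PEF8 and at 26.4, 18.2 and 21.8 FPKM in piPSC5, piPSC7 and piPSC8. The groups overlapped, with piPSC5 the highest and piPSC7 the lowest of the 6 libraries. Limma put the change at -0.16 (SE 0.18), with an adjusted p of 0.465 and a 95% interval from -0.59 to 0.26, so a 2-fold change lies outside it. Rescaled to the median ratio the value was -0.42 (limma adjusted p = 0.0956), and rescaled to equal sums it was -0.49 (limma adjusted p = 0.0799), neither of them called. STAT3 overlaps STAT5A on the opposite strand at its end. The genes with the nearest profiles were SLC37A4 (0.06), SH3BP5L (0.06) and CMAS (0.07), all of which also varied little.

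SOCS3, the feedback inhibitor, is shown with the DNA before its first RefSeq start, since a classical STAT motif lies there. The capitals mark a STAT match (TTCNNNGAA) at -166 to -158, and 5.48% of all stretches held this motif. Of the 9 members with a RefSeq start searched, SOCS3 was the only 1 whose stretches held it. The table places the gene on chromosome 12 from 3643929 to 3647009.
SOCS3, chr12:3643582-3643831, plus strand: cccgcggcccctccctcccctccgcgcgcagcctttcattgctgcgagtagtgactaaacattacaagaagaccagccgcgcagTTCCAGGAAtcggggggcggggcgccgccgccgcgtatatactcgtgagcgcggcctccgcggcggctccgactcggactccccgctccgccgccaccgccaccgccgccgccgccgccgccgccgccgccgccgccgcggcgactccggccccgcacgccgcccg

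SOCS3 was at 21.7, 33.3 and 73.7 FPKM in PEF5, PEF7 and PEF8 and at 13.4, 31.4 and 12.8 FPKM in piPSC5, piPSC7 and piPSC8. The groups overlapped, since piPSC7 lay within the PEF range. The change of -1.06 (SE 0.52) was not called (limma adjusted p = 0.126) and had a 95% interval from -2.29 to 0.17. By line SOCS3 was 1.63-fold lower in line 5, 1.06-fold lower in line 7 and 5.75-fold lower in line 8, and without both libraries of line 8 the log2 fold change was -0.37 (limma adjusted p = 0.525). Rescaled to the median ratio it was -1.32 (limma adjusted p = 0.0697), and without piPSC7 it was -1.46 (limma adjusted p = 0.0571), neither of them called. The genes nearest in profile were NR4A3 (0.15), an immediate early gene, TMEM38A (0.19) and SCARB2 (0.23). NR4A3 was at 1.45, 2.08 and 4.69 FPKM in PEF5, PEF7 and PEF8 and at 0.231, 1.88 and 0.176 FPKM in piPSC5, piPSC7 and piPSC8.

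The order of the mean levels thus differed between the groups. In PEFs it ran IL11, LIF, IL6, SOCS3, IL6ST, STAT3, OSMR, IL11RA, IL6R and LIFR, and the ranges over lines overlapped between LIF and IL6, IL6 and SOCS3, SOCS3 and IL6ST, and IL6ST and STAT3. In piPSCs it ran IL6ST, STAT3, SOCS3, LIFR, OSMR, IL11RA, IL11, LIF, IL6 and IL6R, and the ranges of all neighbours overlapped, with the exception of IL6 and IL6R. Ligands thus led the order by FPKM in fibroblasts, and receptor and signalling genes led it in piPSCs.

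Each piPSC line was also set against its own PEF line, with a ratio of (FPKM + 1) of at least 2-fold counted and no test. In line 5, 1 of the 10 genes was higher (21.9% of tested genes) and 6 were lower (18.6%). In line 7, 1 was higher (24.9%) and 5 were lower (17.2%). In line 8, 2 were higher (23.8%) and 5 were lower (23.8%). IL6, IL11, LIF and IL6R were lower and LIFR higher in all 3 lines. The lines parted on OSMR, which was lower in line 5, on IL11RA, which was lower in lines 5 and 7 and higher in line 8, and on SOCS3, which was lower in line 8.

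The other ligands and receptors of the family were read from lists of 7 and 3 genes. Of the 2 ligand genes tested, 1 fell and none rose, and the same held for the 2 receptor genes tested. Of all tested genes, 16.7% were called lower and 20.2% higher. For ligands, receptors, shedding, STAT3 response and pluripotency factors alike, limma gave 0 higher genes also at an unadjusted p under 0.05, and voom called 0 higher. CLCF1, a ligand acting through gp130 and LIFR, went from 21.0, 25.5 and 19.0 FPKM in PEF5, PEF7 and PEF8 to 0.417, 0.634 and 0.190 in piPSC5, piPSC7 and piPSC8 (log2 fold change -4.02, limma adjusted p = 0.000145). CTF1 was not called, and OSM, EBI3 and IL31 were below the filter. Of 2 receptor genes tested, IL27RA fell, from 39.1 to 47.6 FPKM in PEFs to 1.67 to 4.20 in piPSCs (log2 fold change -3.49, limma adjusted p = 0.000321), and its row overlaps PALM3 on the opposite strand. CNTFR was not called, IL31RA was below the filter, and CNTF and IL27 were not analysed here.

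Among the JAK kinases, other STATs and adaptors, 11 of 13 were tested, of which 2 rose and 4 fell, against 20.2% and 16.7% of all tested genes, with 1 called higher after rescaling to the median ratio. TYK2, a kinase bound to gp130, rose from 7.84 to 11.7 FPKM in PEFs to 29.9 to 49.6 in piPSCs (log2 fold change 1.90, limma adjusted p = 0.00127), and the adaptor GAB1 rose by 1.24 (limma adjusted p = 0.0138). STAT5A, SHC1 and STAT6 fell, with log2 fold changes of -2.55, -2.05 and -1.52 (limma adjusted p = 0.000488, 0.000246 and 0.00284). JAK1, the main kinase of gp130, named after its values were seen, fell from 35.7 to 41.1 FPKM to 11.9 to 21.4 FPKM (log2 fold change -1.15, limma adjusted p = 0.0071). The median log2 fold change of the 11 was -0.50, against 0.20 over all tested genes. JAK2, STAT2, STAT5B, GRB2 and PTPN11 were not called.

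Of 12 tested negative regulators, none was called higher and 1 fell, against 20.2% and 16.7% of all tested genes. PTPN1 and SOCS4 were higher by less than 2-fold, with log2 fold changes of 0.59 and 0.70 (limma adjusted p = 0.0235 and 0.0253). SOCS7 was higher by less than 2-fold at an unadjusted limma p under 0.05 only (limma adjusted p = 0.0606). Voom called none of the list higher. Without piPSC7, 2 of the list were called lower. PIAS3, an inhibitor of STAT3, went from 21.5 to 33.4 FPKM in PEFs to 6.65 to 7.66 in piPSCs (log2 fold change -1.86, limma adjusted p = 0.000842). The median of the list was -0.04. Of the 5 genes of receptor shedding, RHBDF1, a regulator of the protease ADAM17, and ERAP1 fell with log2 fold changes of -1.52 and -1.57 (limma adjusted p = 0.000878 and 0.0141). ADAM17 and ADAM10, the proteases that release IL6R from the cell surface, were not called. Without PEF5, 1 gene of this list was called lower.

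The RNA-binding proteins that set the lifetime of cytokine mRNAs formed a list of 9, all tested, with 1 called higher (2 without PEF5) and 4 called lower, against 20.2% and 16.7% of all tested genes. ZC3H12A, the RNase that cleaves IL6 mRNA, was at 32.0 to 71.0 FPKM in PEFs and 1.75 to 2.71 in piPSCs (log2 fold change -3.74, limma adjusted p = 0.000428). ZFP36L1 and ZFP36, which destabilise AU-rich mRNAs, fell with log2 fold changes of -2.79 and -1.80 (limma adjusted p = 0.00668 and 0.0251). ARID5A, which protects IL6 mRNA and was named after its values were seen, changed by -1.38 on the log2 scale (limma adjusted p = 0.0037). HNRNPD rose from 56.8 to 62.9 FPKM to 188 to 197 FPKM (log2 fold change 1.68, limma adjusted p = 0.000296). ZC3H12A and ARID5A, which act on IL6 mRNA in opposite ways, were thus both lower in piPSCs. Under the 2-fold threshold, ELAVL1 and RC3H1 were higher, with log2 fold changes of 0.97 and 0.71 (limma adjusted p = 0.00149 and 0.0369). RC3H2 and ZFP36L2, also not called, were at -0.34 and -0.03. These uncalled genes were named after their values were seen.

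Genes known to respond to STAT3 were mostly lower in piPSCs, although STAT3 RNA was not called. Of 14 tested, 11 fell and none rose, against 16.7% and 20.2% of all tested genes, with a median log2 fold change of -1.65. The summed fibroblast markers fell from 4370 to 6204 FPKM to 130 to 223 FPKM beside them, and their part in the result was not tested. VEGFA was at 457, 381 and 446 FPKM in PEF5, PEF7 and PEF8 and at 22.9, 28.5 and 25.6 FPKM in piPSC5, piPSC7 and piPSC8 (log2 fold change -4.01, limma adjusted p = 7.86e-05). MYC, CEBPB and CEBPD fell with log2 fold changes of -3.98, -3.54 and -2.84 (limma adjusted p = 0.00634, 0.00223 and 0.00229). MYC was lower although the piPSCs carry a c-Myc transgene, and fragments of the transgenes were not told apart. FOS, PIM1 and BCL3 were not called. Many other inputs act on these genes, and the part of STAT3 in their levels was not tested. Like the other lists, this list was chosen with earlier results of these data known.

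Of the pluripotency factors that LIF and STAT3 support in mouse cells, 6 of 11 were tested, with 2 called lower and none higher, against 16.7% and 20.2% of all tested genes. Libraries rescaled to equal sums gave 4 called lower, and 1 was called lower without PEF7. TBX3 was at 3.43, 5.52 and 28.9 FPKM in PEF5, PEF7 and PEF8 and at 0.483, 0.0104 and 0 FPKM in piPSC5, piPSC7 and piPSC8 (log2 fold change -3.06, limma adjusted p = 0.0112). KLF4, also an introduced factor, went from 17.4 to 41.6 FPKM in PEFs to 4.45 to 12.9 in piPSCs (log2 fold change -1.71, limma adjusted p = 0.0177). NANOG, ESRRB, SALL4 and GBX2 were below the filter.

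**Figure D4:**
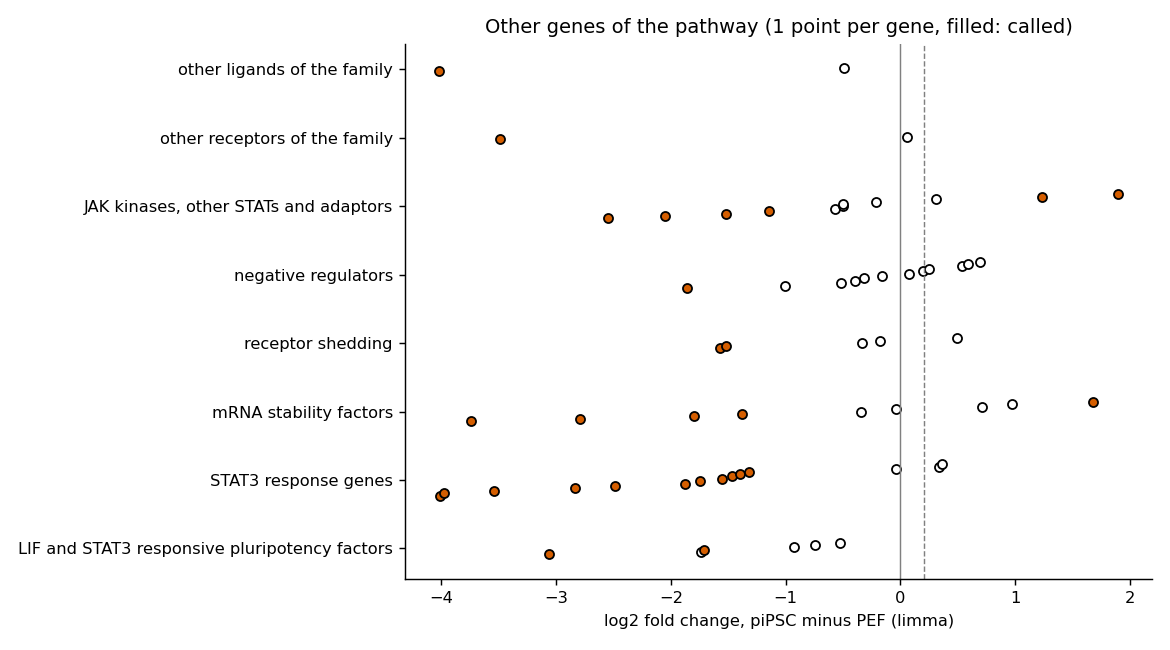
Log2 fold change, piPSC minus PEF, of each tested gene in 8 lists of the pathway, 1 point per gene, filled where called; the solid line is 0 and the dashed line the median of all tested genes, 0.20. The STAT3 response genes hold 11 filled points, all below 0, and the JAK list has filled points on both sides.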

How the data were processed

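RNA-seq values of 3 PEF lines and 3 piPSC lines were used. The values deposited by the authors are FPKM per gene, and the submitters' processing notes name HISAT2 2.1.0, HTSeq 0.6.0, Bowtie2 2.2.3 and Sscrofa11.1 without saying which made this table. Libraries were poly-A selected and read over 150 bp from both ends. The strand setting is not given in the sources used here. FPKM values were whole multiples of 1 fragment for 18007 genes (100%), from which library totals, gene lengths and fragments per gene were recovered. Each length is the smallest that gave whole fragments in every library.

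Groups were compared with limma 3.58.1 in R 4.3.3 (trend, not robust, two-sided) on log2(FPKM + 1) over 12428 genes with a mean of at least 0.5 FPKM, with Benjamini-Hochberg adjustment over all of them. The fit was unpaired, as is the test that the study's statistics section names, while the study compared expression line by line, which was also done here without a test. On simulated data with 11903 genes, 188 of 200 genes changed 4-fold were called, with 4 others. Every simulated library was drawn from the PEF means with the same small spread for all genes and no differences between lines. The counts therefore check the fit and do not give its power at the spread of the real lines. An exact permutation test over 3 and 3 lines has 0.1 as its smallest p and was not used. Libraries pair by donor, since a piPSC line and a PEF line that share a number share their animal, and their departures from the group means had correlations of 0.0921, 0.0946 and 0.0800, against -0.12 to 0.06 for other pairs.

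Alternatives were the line as a replicate block, 0.1 as pseudocount, no filter, a mean FPKM of at least 1, 2 rescalings, quantile normalization, no trend, voom on the recovered fragments, a 4-fold threshold and leaving out each library. Leaving out line 8 was added after the values were seen. The members and gene lists were chosen with earlier results of these data known. Named genes were the 10 members, up to 4 called genes of each list by size and up to 2 called in the opposite direction, and the 3 nearest profiles of 5 members. Stretches before RefSeq mRNA starts were read from Sscrofa11.1 with Python 3.11.15, numpy 2.4.6, pandas 2.3.3 and scipy 1.17.1, for 24 starts of 9 members, and these starts were used after the table's own starts were seen to lie inside some genes. Protein sequences were not analysed here. Some genes of the lists are not reported here and were left out of the list counts.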

Additional observations from a re-analysis of the deposited data

Results flagged for a closer look

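OSMR and IL11RA moved in opposite directions in different lines. For OSMR, the log2 ratio of (FPKM + 1) in the piPSC line to its own PEF line was -2.35 in line 5, -0.18 in line 7 and 0.86 in line 8. For IL11RA it was -1.49 in line 5, -1.83 in line 7 and 1.17 in line 8. With 1 library per line, the difference between lines was not tested.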

How the results depend on the processing

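The calls of IL6, IL11, LIF, IL6R and LIFR kept their direction and their side of the 2-fold threshold under each alternative fit that gave a value. IL6R gave none with a mean FPKM of at least 1, which removes it. With the line as a replicate block, IL6 was at -5.86 (limma adjusted p = 0.00251), and the block changed no call of the 10 genes. Leaving out 1 library each time moved OSMR between -1.06 and 0.27 (without piPSC5) and IL11RA between -1.51 (without piPSC8, called) and -0.24. Genes called lower ranged from 1 to 2 among negative regulators (2 without piPSC7), from 1 to 2 in receptor shedding (1 without PEF5) and from 1 to 3 among the pluripotency factors (1 without PEF7), and those called higher from 1 to 2 among mRNA stability factors (2 without PEF5). Without both libraries of line 8, IL11RA was called at -1.66. Rescaling to the median ratio left 1 gene of the JAK list called higher, and equal sums gave 4 pluripotency factors called lower. The 4-fold threshold was applied to the line-by-line counts only. There 3 of the 10 genes were lower in line 7 and 1 was higher in line 8, the latter also with equal sums. The causes of these moves were not tested. Depth limits the piPSC values of IL6, IL11 and IL6R most, since each rests on 30 fragments or fewer per library.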

Other observations

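Among the piPSC lines, piPSC7 had the highest level of some genes of the pathway lists, which were picked out after the values were seen and not tested. SOCS3 was at 31.4 FPKM there against 13.4 in piPSC5 and 12.8 in piPSC8. SOCS1 was at 6.47 FPKM against 1.60 and 0.873, and SOCS5 at 15.2 against 4.64 and 4.32. FOS was at 220 FPKM against 27.9 and 9.32, PIM1 at 6.46 against 3.06 and 1.27, and ZFP36 at 13.3 against 4.48 and 3.25. STAT3 itself was lowest in piPSC7, at 18.2 FPKM. PEF7 was also the PEF line with the highest FOS, at 123 FPKM against 27.0 in PEF5 and 8.43 in PEF8, while SOCS3 was highest in PEF8. Other genes of the same lists did not follow: SOCS7 was lowest in piPSC7, at 2.94 FPKM against 3.81 and 4.02, and BCL3 and IRF1 were highest in piPSC8, at 13.2 and 5.28 FPKM. PiPSC7 also stood apart in some markers of other cell types. The muscle gene DES was at 14.2 FPKM against 0.165 in piPSC5 and 2.51 in piPSC8, and the keratinocyte gene KRT14 at 3.04 against 0.164 and 0.225. The rest of both marker sets was low or absent in piPSC7, though ACTC1, KRT5 and DSG3 were also higher there than in piPSC5 and piPSC8. ACTC1 was at 0.269 FPKM against 0.0304 and 0, KRT5 at 0.806 against 0.0252 and 0, and DSG3 at 0.0263 against 0.0208 and 0. MYOD1, MYF5, PAX7 and TP63 were at 0 in piPSC7. Whether any such cells were present was not tested.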
